A study of Homo sapiens with 12 samples.

Results

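The 9 genes described here carry out antigen presentation by MHC class I. They were chosen by name, as the rows of the deposited count table for HLA-B, HLA-C, HLA-E, B2M, TAP1, TAP2, TAPBP, ERAP1 and ERAP2, out of 25435 gene symbols, and all 9 passed the filter on low counts. RNA was sequenced in 12 libraries of the gastric cancer cell line LMSU, of human origin and labelled as R175H for p53, to examine loss of that mutant p53. Every group held 2 libraries. In the knockout arm, without doxycycline, a p53 knockout (GFP_sg-1) stood beside its control (GFP_V2). In the knockdown arm, with doxycycline, p53 shRNA 1 and p53 shRNA 2 stood beside a scramble hairpin and a vector. The labels mark R175H as absent from the knockout and from both hairpin groups, and as present in the knockout control, scramble and vector. Whether a group's libraries are separate cultures or clones is not in the labels, so the spread between them, and every p-value here, may be technical.

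Class I molecules display short peptides from inside the cell at its surface. The proteasome cuts proteins, the TAP1/TAP2 transporter carries the peptides into the endoplasmic reticulum, aminopeptidases trim them, and tapasin holds the empty class I molecule at the transporter until a peptide is loaded. The complete molecule is a heavy chain (HLA-B, HLA-C or HLA-E here) bound to beta-2 microglobulin. CD8+ T cells read the peptides, and natural killer cells have receptors for HLA-C and HLA-E. In many cell types interferons raise these genes together, through IRF factors and the transactivator NLRC5.

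The heavy chain, transporter and tapasin genes lie in the MHC region of chromosome 6. Places are given from RefSeq on GRCh38.p14, whereas the counts were made on hg19. On the minus strand of chromosome 6 are HLA-B at 31353875 to 31357179, HLA-C at 31268749 to 31272092, TAP1 at 32845209 to 32853704, TAP2 at 32821831 to 32838739 and TAPBP, which encodes tapasin, at 33299694 to 33314078. HLA-E lies on the plus strand of the same chromosome at 30489509 to 30494194. B2M, which encodes beta-2 microglobulin, is on the plus strand of chromosome 15 at 44711517 to 44718145. The aminopeptidase genes are neighbours on chromosome 5, with ERAP1 on the minus strand at 96760813 to 96935854 and ERAP2 on the plus strand at 96875984 to 96919716, inside the span of ERAP1.

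Promoter sequence was matched in RefSeq (GRCh38.p14) for 8 of the 9 genes, as windows of 250 bases before and 50 bases after a start site. The 250 bases before the start are shown for 6 genes, because HLA-B, HLA-C, B2M, TAP1 and TAPBP stood lower in one arm of the study and TAP2 stood higher there. Each runs 5′ to 3′ on the strand of its gene, and capitals mark every match, on either strand, to the interferon-stimulated response element core (GAAA, any 2 bases, GAAA), an interferon half-site (AANNGAAAC), the kappa B site (GGG, any 2 bases, T, any 2 bases, CC) or the CCAAT box. The windows are chr6:31357180-31357429 (HLA-B, minus), chr6:31272093-31272342 (HLA-C, minus), chr15:44711267-44711516 (B2M, plus), chr6:32853705-32853954 (TAP1, minus), chr6:33314079-33314328 (TAPBP, minus) and chr6:32838740-32838989 (TAP2, minus).
HLA-B: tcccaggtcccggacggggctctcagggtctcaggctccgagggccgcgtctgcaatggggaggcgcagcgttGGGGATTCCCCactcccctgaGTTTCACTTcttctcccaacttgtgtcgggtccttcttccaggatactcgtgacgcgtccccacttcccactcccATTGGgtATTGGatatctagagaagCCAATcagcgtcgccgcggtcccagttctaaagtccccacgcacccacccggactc
HLA-C: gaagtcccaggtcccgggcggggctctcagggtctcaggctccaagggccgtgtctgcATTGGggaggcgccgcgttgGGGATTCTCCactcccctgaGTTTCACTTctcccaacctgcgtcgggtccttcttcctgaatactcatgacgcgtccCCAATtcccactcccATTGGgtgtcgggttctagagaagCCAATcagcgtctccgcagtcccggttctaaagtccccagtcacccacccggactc
B2M: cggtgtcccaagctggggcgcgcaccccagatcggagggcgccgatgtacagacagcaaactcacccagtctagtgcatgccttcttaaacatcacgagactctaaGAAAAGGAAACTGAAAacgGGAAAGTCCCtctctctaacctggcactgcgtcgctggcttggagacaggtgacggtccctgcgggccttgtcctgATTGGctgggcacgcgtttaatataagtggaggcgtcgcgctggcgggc
TAP1: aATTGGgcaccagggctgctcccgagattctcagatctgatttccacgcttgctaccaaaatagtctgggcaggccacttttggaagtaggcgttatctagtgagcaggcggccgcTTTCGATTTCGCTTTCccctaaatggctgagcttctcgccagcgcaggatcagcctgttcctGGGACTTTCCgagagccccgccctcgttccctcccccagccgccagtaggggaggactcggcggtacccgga
TAPBP: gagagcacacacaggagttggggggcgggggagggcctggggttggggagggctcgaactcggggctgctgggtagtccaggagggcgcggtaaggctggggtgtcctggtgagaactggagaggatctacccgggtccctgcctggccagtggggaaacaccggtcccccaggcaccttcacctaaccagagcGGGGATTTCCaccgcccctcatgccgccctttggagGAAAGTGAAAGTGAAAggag
TAP2: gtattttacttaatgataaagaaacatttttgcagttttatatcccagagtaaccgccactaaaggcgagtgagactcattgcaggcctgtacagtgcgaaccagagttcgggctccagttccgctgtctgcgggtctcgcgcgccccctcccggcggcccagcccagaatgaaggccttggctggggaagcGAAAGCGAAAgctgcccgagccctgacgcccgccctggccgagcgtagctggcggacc

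In HLA-B and HLA-C a kappa B match was followed by an interferon half-site, at positions -177 and -156 in HLA-B and at -172 and -152 in HLA-C, counted from the start site. B2M held 2 overlapping response element cores, at -144 and -138, and overlapping them a half-site at -142. TAP1 held overlapping cores at -134 and -128 and TAPBP at -20 and -14, while TAP2 held a single core at -58. ERAP1 had a core 3 bases past its start and ERAP2 had one at -30 of its second start site. The core occurred in 3.57% of the 35116 human promoter windows of the same length, the half-site in 5.21%, the kappa B pattern in 22% and CCAAT in 34.6%. The motifs were chosen after the sequences and values had been seen, and a match describes letters only.

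**Figure D1:**
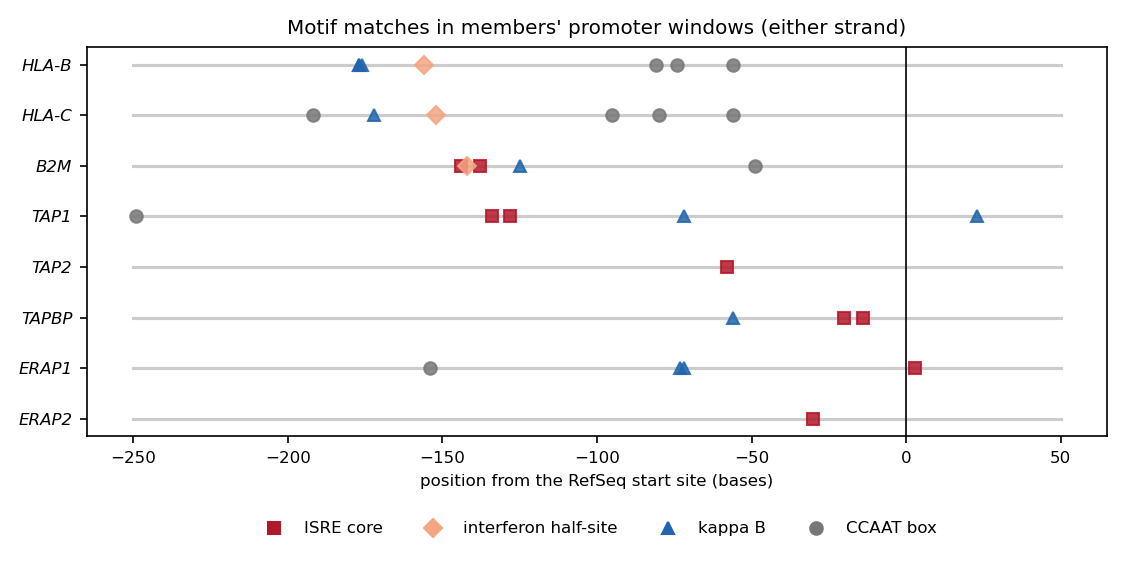
Motif matches (symbols) along the promoter windows of 8 class I presentation genes, with distance from the RefSeq start site in bases on the horizontal axis. Matches to the response element core lie upstream of the start in B2M, TAP1, TAPBP, TAP2 and ERAP2, and the HLA-B and HLA-C windows hold an interferon half-site near -156 and -152.

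Levels are given in CPM, counts relative to the size of the library after TMM scaling. HLA-B, a classical heavy chain, was at 993 and 1237 CPM in the 2 p53 knockout libraries and at 1270 and 881 CPM in their control. In the knockdown arm HLA-B was at 2753 and 2834 CPM with shRNA 1, 2525 and 2638 CPM with shRNA 2, 3222 and 3049.6 CPM in scramble, and 2242 and 2199 CPM in vector. The knockout libraries overlapped their control, the hairpin libraries lay below scramble and above vector, and every knockdown-arm library lay above every knockout-arm library. HLA-C, the other classical heavy chain in the set, was at 379 and 441 CPM in the knockout and 493 and 345 CPM in its control. It was at 1041 and 1101 CPM with shRNA 1, 913 and 939 CPM with shRNA 2, 1199 and 1119 CPM in scramble, and 907 and 895 CPM in vector. HLA-C followed the same order of groups as HLA-B within the knockdown arm, and its knockout libraries again lay within the range of their control.

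HLA-E, which presents leader peptides of other class I chains to natural killer cells, differed most between groups. It was at 208 and 246 CPM in the knockout and 287 and 220.3 CPM in its control. It was at 1004 and 1019 CPM with shRNA 1, 1162 and 1197 CPM with shRNA 2, 1262 and 1238 CPM in scramble, and 882 and 873 CPM in vector. The hairpin groups did not overlap each other or either knockdown control, and lay between the controls. B2M was at 827 and 923 CPM in the knockout and 850.1 and 767 CPM in its control. It was at 1885 and 1822 CPM with shRNA 1, 1727 and 1735 CPM with shRNA 2, 1961 and 1937 CPM in scramble, and 1497 and 1477 CPM in vector. For B2M too, both hairpins lay between scramble and vector without overlap.

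Among the genes of the loading machinery, TAP1 and TAP2, the subunits of the peptide transporter, stood in opposite order. TAP1 was at 76.6 and 87.5 CPM in the knockout, 94.3 and 71.2 CPM in its control, 226 and 223 CPM with shRNA 1, 278 and 294 CPM with shRNA 2, 294 and 297 CPM in scramble, and 241 and 231 CPM in vector. TAP2 was at 129.7 and 133 CPM in the knockout, 131 and 129 CPM in its control, 63.1 and 63.6 CPM with shRNA 1, 71.8 and 69.6 CPM with shRNA 2, 74.1 and 79.0 CPM in scramble, and 74.5 and 68.3 CPM in vector. TAP1 was thus lower in the knockout arm than in the knockdown arm and TAP2 was higher, with no overlap between arms for either gene. TAPBP was at 216 and 215 CPM in the knockout, 214 and 202 CPM in its control, 386 and 386 CPM with shRNA 1, 384 and 383 CPM with shRNA 2, 449.5 and 455 CPM in scramble, and 312 and 304 CPM in vector. Its knockout libraries lay just above those of the control, and both hairpins lay between scramble and vector.

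The trimming aminopeptidases behaved differently from each other. ERAP1, which trims long peptides to the length that class I binds, was at 65.8 and 57.3 CPM in the knockout, 48.9 and 61.3 CPM in its control, 54.6 and 48.5 CPM with shRNA 1, 58.5 and 53.2 CPM with shRNA 2, 56.0 and 56.1 CPM in scramble, and 50.4 and 54.1 CPM in vector. Its libraries overlapped between most groups. ERAP2, a related aminopeptidase, was at 93.7 and 78.9 CPM in the knockout, 64.3 and 85.4 CPM in its control, 80.1 and 77.2 CPM with shRNA 1, 129 and 129.8 CPM with shRNA 2, 147 and 147 CPM in scramble, and 123 and 125 CPM in vector. With shRNA 1 ERAP2 lay below the other 3 knockdown-arm groups without overlap and within the range of the knockout arm.

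**Figure D2:**
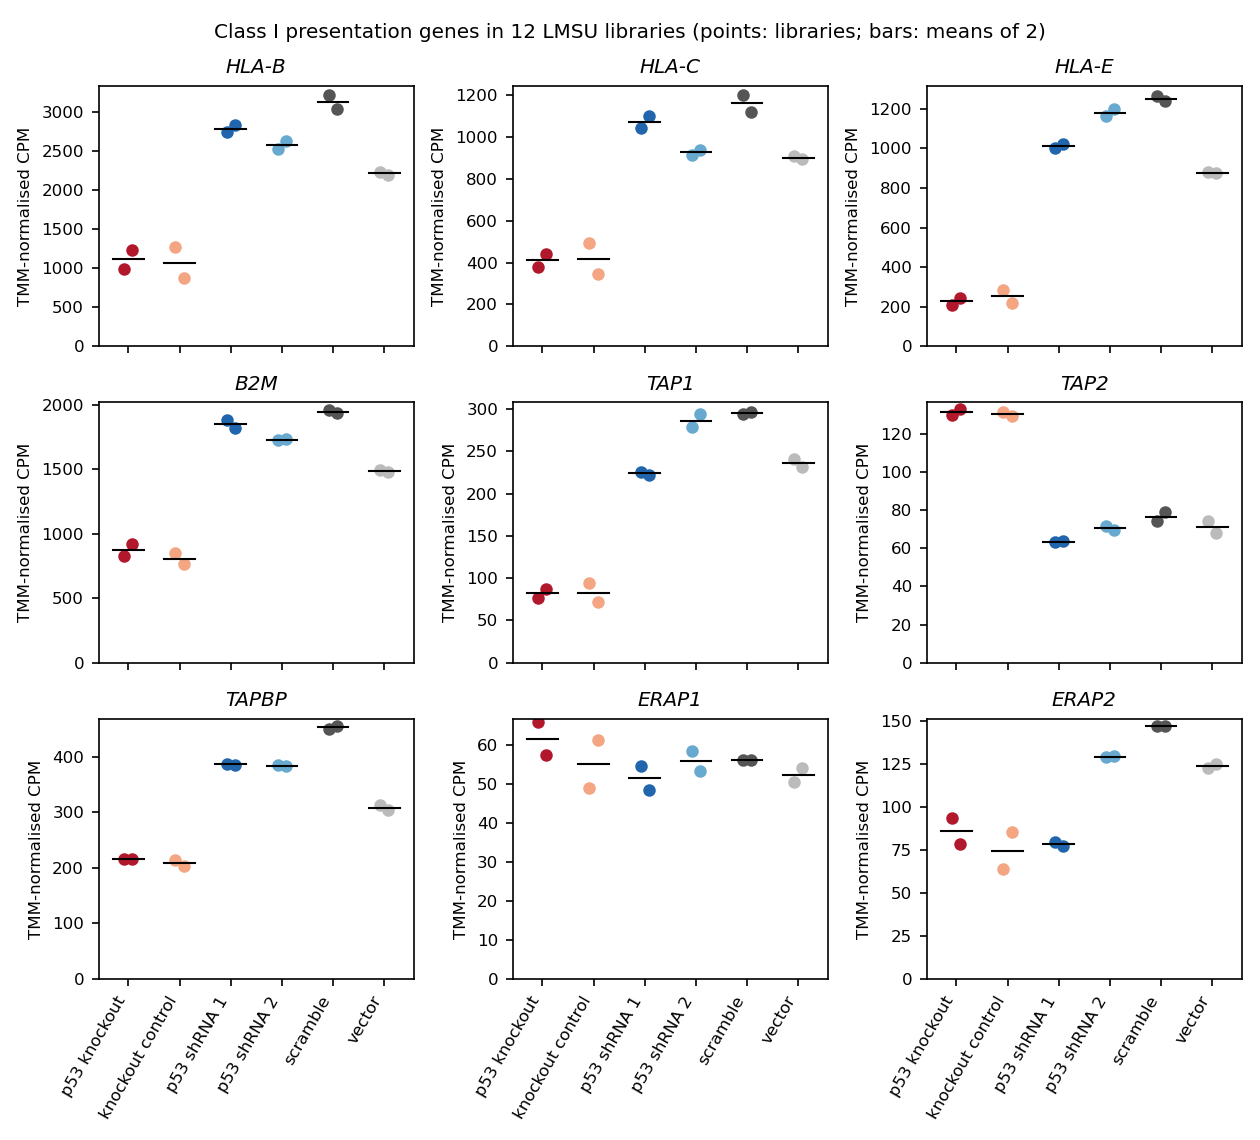
TMM-normalised CPM (vertical axes, from 0) of the 9 genes in the 6 groups; points are libraries and bars are means of 2. HLA-B, HLA-C, HLA-E, B2M, TAP1 and TAPBP are lower in both knockout-arm groups than in every knockdown-arm group, TAP2 is higher there, and ERAP2 with shRNA 1 stands apart from the rest of the knockdown arm.

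Ranked by group mean, scramble was the highest group for 7 of the 9 genes and the p53 knockout was the highest for TAP2 and ERAP1. The highest group mean was 5.51 times the lowest for HLA-E, 3.60 times for TAP1, 2.92 times for HLA-B, 2.83 times for HLA-C, 2.41 times for B2M, 2.17 times for TAPBP, 2.07 times for TAP2, 1.97 times for ERAP2 and 1.19 times for ERAP1. Libraries of the knockout and its control overlapped for every gene except TAPBP. Within the knockdown arm, groups next to each other in order overlapped for TAP1 (scramble and shRNA 2), TAP2 (scramble, vector and shRNA 2) and ERAP1, and not for the other 6 genes. Such separation was common among all genes. In comparisons of 2 groups within this arm, 31% to 36.1% of all genes did not overlap in each direction. The share of all genes with every neighbouring group apart was not computed. Per kilobase of the principal transcript, the scramble means ran from 2027 CPM per kb for HLA-B and 1143 for B2M through 755 for HLA-C, 481 for HLA-E, 240 for TAPBP, 99.8 for TAP1, 30.6 for TAP2 and 25.8 for ERAP2 to 10.2 CPM per kb for ERAP1. In scramble the heavy chains and B2M stood above the loading and trimming genes on this scale. In the knockout arm HLA-E, at 87.3 CPM per kb in the knockout and 97.4 in its control, was below TAPBP, at 114 and 110.3 CPM per kb.

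Counting limits apply to several of these levels, since the strand setting was not given in the sources used here, nor was the handling of shared reads. In the GENCODE annotation 17.8% of the exon bases of HLA-B overlap the pseudogene AL671883.2 on the opposite strand. There too 9.49% of the exon bases of TAP1 overlap PSMB8-AS1 on the opposite strand, 32.3% of those of TAP2 overlap AL669918.1 on the same strand, and 3.76% of those of ERAP1 overlap CAST on the opposite strand. HLA-B and HLA-C share few exact stretches of 50 bases in the reference (1.67% of those in HLA-B). Stretches with mismatches were not compared, nor were class I genes outside the set or pseudogenes. LMSU may carry HLA alleles other than the reference ones, so levels of HLA-B, HLA-C and HLA-E also depend on how well their reads matched it.

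The deposited totals were 9738094 to 16823246 counts per library. The libraries of the knockout control differed most, with a chi-square of 34.4 per degree of freedom over genes, against 9.99 in the knockout and 1.56 to 2.31 in the 4 knockdown-arm groups. Fitted apart, the arms had biological coefficients of variation of 15.6% (knockout) and 3.07% (knockdown). Of the labelled tissue's epithelial markers, KRT18 (median 231 CPM) and KRT8 were present, but EPCAM and CDH1 did not pass 0.17 and 0.16 CPM in any library. COL1A1 (median 5582 CPM) and COL3A1 (1913 CPM), collagens of fibroblasts, were high. The T and B cell markers CD3E and MS4A1 were at 0 in every library and PTPRC did not pass 0.27 CPM, while CD68, also a leukocyte marker, had a median of 397 CPM.

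Fold changes below are log2 values from edgeR's quasi-likelihood test on all 12 libraries, with standard errors (SE), and a gene was called at a Benjamini-Hochberg adjusted p below 0.05 over the 13365 genes tested. Against its control, the p53 knockout left all 9 genes uncalled. In this comparison 0.015% of all genes were called, 859 genes and 0 of the 9 had an unadjusted p below 0.05, and DESeq2 called 20 genes and 0 of the 9. B2M was at 0.11 (95% interval -0.07 to 0.29), HLA-B at 0.05 (-0.27 to 0.37), HLA-C at -0.03 (-0.33 to 0.27) and HLA-E at -0.16 (-0.41 to 0.10). TAP1 was at -0.01 (-0.28 to 0.25), TAP2 at 0.01 (-0.17 to 0.19), TAPBP at 0.05 (-0.11 to 0.20), ERAP1 at 0.16 (-0.11 to 0.43) and ERAP2 at 0.21 (-0.07 to 0.48). For ERAP2 the interval does not reach the -0.91 seen with shRNA 1 against scramble. These intervals rest on a spread shared by all 12 libraries. Fitted apart, the knockout arm varied by 15.6% and the knockdown arm by 3.07%, so the intervals may be too narrow for the knockout. TAPBP was the only member whose knockout libraries did not overlap the control, both being higher, as were 12% of all genes.

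The libraries of the knockout control pulled these values in opposite directions. Without the second control library, 4 of the 9 genes were called, with HLA-E at -0.34 (adjusted p 0.0069), HLA-C at -0.26 (adjusted p 0.024), ERAP1 at 0.33 (adjusted p 0.030) and ERAP2 at 0.42 (adjusted p 0.0049) in edgeR, and 4122 of all genes were called too. Without the first control library, 0 of the 9 genes and 16 of all genes were called, and HLA-C was at 0.25 and HLA-B at 0.34. The direction of HLA-B, HLA-C, HLA-E and TAP1 in the knockout thus turned with the control library that was kept.

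With shRNA 1 against scramble, ERAP2 fell by 0.91 (SE 0.13, edgeR adjusted p 0.0013) and no other member was called. ERAP2 was called with any single library left out, at -0.93 to -0.88. That is 1 of the 9 lower, where 5.01% of all genes were called lower. All 9 fold changes were negative, with a median of -0.23 against 0.00 for all genes, and in all 9 both shRNA 1 libraries lay below both scramble libraries, as they did in 31% of all genes. TAP1 was at -0.40 (SE 0.12, adjusted p 0.056), HLA-E at -0.31 (SE 0.12, adjusted p 0.13), TAP2 at -0.27 (SE 0.08, adjusted p 0.069) and TAPBP at -0.23 (SE 0.07, adjusted p 0.065). HLA-B at -0.17, ERAP1 at -0.12, HLA-C at -0.11 and B2M at -0.07 were smaller still.

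The 12-library fit shares one estimate of spread between the arms, so the 8 knockdown-arm libraries were also fitted alone. There 7 of the 9 genes were called lower with shRNA 1 against scramble, where 16.7% of all genes were. ERAP2 was at -0.90 (adjusted p 8.0e-19), TAP1 at -0.39 (adjusted p 1.2e-09), HLA-E at -0.30 (adjusted p 7.5e-09), TAP2 at -0.27 (adjusted p 0.00085), TAPBP at -0.23 (adjusted p 2.2e-05), HLA-B at -0.17 (adjusted p 0.00035) and HLA-C at -0.11 (adjusted p 0.025) in edgeR. B2M and ERAP1 were not called. Each fold change was within 0.01 of its value in the 12-library fit.

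With shRNA 2 against scramble all 9 values were again negative, with a median of -0.17, and edgeR called 0 of the 9, where 7.74% of all genes were called in either direction. At an unadjusted p below 0.05 there were 2 members and 2890 of all genes, and DESeq2 called 0 members and 840 of all genes. HLA-C was at -0.32 (SE 0.14, adjusted p 0.19), HLA-B at -0.28 (SE 0.15, adjusted p 0.31), TAPBP at -0.24 (SE 0.07, adjusted p 0.063) and ERAP2 at -0.19 (SE 0.12, adjusted p 0.43). B2M was at -0.17, TAP2 at -0.11, HLA-E at -0.08, TAP1 at -0.05 and ERAP1 at -0.01. Both shRNA 2 libraries lay below both scramble libraries for 7 of the 9 genes, as they did for 31.4% of all genes. The 8 knockdown-arm libraries alone gave calls for 5 of the 9, all lower, namely HLA-C, HLA-B, TAPBP, B2M and ERAP2, where 14.8% of all genes were called lower. Of the 7 fibroblast markers, 1 was called higher and 1 lower with shRNA 1, and 2 higher and 1 lower with shRNA 2 against scramble, and their part in these results was not tested. The comparisons of the hairpins share the scramble libraries, so a high scramble value lowers both sets of fold changes at once.

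**Figure D3:**
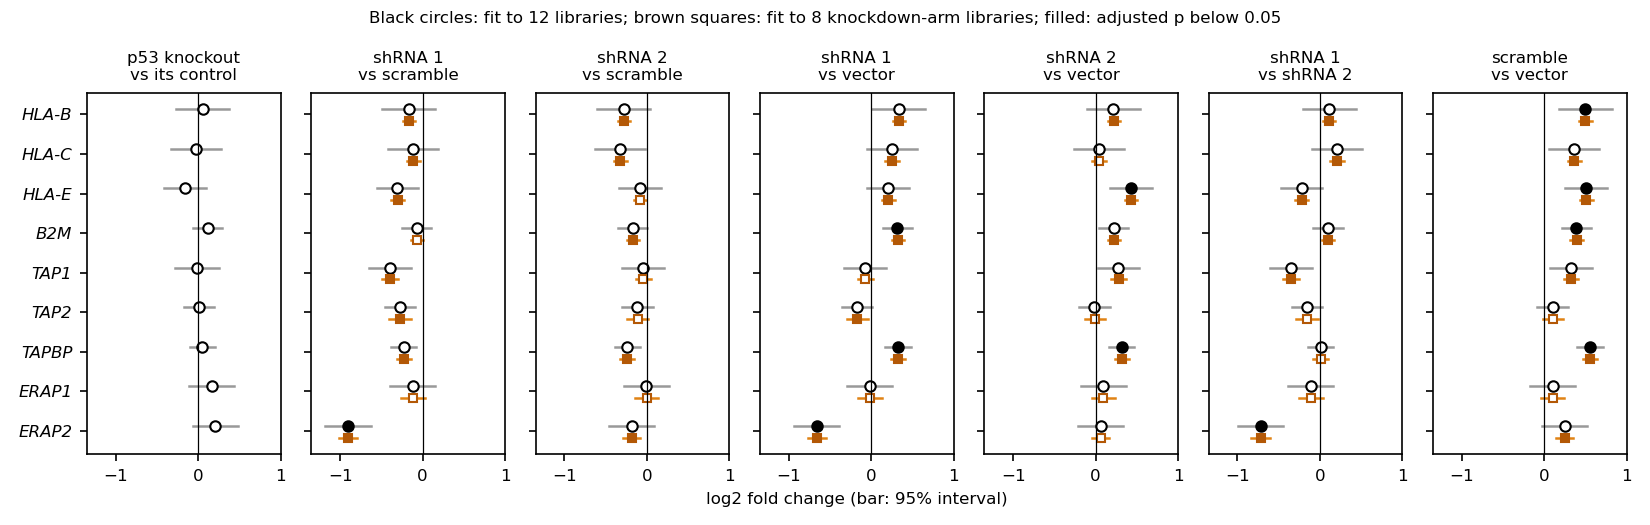
Log2 fold changes (horizontal axes) of the 9 genes in 7 comparisons, with 95% intervals, from the fit to 12 libraries (circles) and from the 8 knockdown-arm libraries alone (squares); filled symbols are called at an adjusted p below 0.05. Values against scramble lie at or below 0, most values against vector lie above 0, and ERAP2 with shRNA 1 is called in each of its comparisons.

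Set against vector, the other knockdown control, the picture turned round for most members. With shRNA 1, TAPBP rose by 0.32 (SE 0.07, edgeR adjusted p 0.012) and B2M by 0.32 (SE 0.08, adjusted p 0.026), while ERAP2 fell by 0.66 (SE 0.13, adjusted p 0.0060). These were 2 of the 9 higher and 1 lower, where 5.78% of all genes were called higher and 7.26% lower. With shRNA 2, TAPBP rose by 0.32 (SE 0.07, adjusted p 0.0080) and HLA-E by 0.43 (SE 0.12, adjusted p 0.022), which is 2 of the 9 where 9.21% of all genes were called higher. Fibroblast markers moved beside these members, with 5 of 7 called higher and 1 lower with shRNA 1 and 5 higher and 2 lower with shRNA 2. DCN, which encodes decorin, was at 2.14 and 3.09 and LUM, which encodes lumican, at 1.19 and 2.24 with shRNA 1 and shRNA 2 against vector. THY1 went the other way, at -1.21 and -1.43, and COL1A1 was at -0.05 and -0.36. The part of these markers in the result was not tested. Leaving out single libraries of the compared groups ended each of these calls, with adjusted p-values of up to 0.12 (TAPBP), 0.17 (B2M) and 0.064 (ERAP2) with shRNA 1, and up to 0.087 (TAPBP) and 0.13 (HLA-E) with shRNA 2. HLA-B was at 0.33 (adjusted p 0.16) with shRNA 1 and 0.22 (adjusted p 0.34) with shRNA 2, and TAP1 was at -0.07 and 0.28. In the 8-library fit shRNA 1 had 5 members higher and 2 lower than vector (19% and 20.6% of all genes), and shRNA 2 had 5 higher (22.4%). ERAP2 with shRNA 1 was the one called change that went the same way against both controls in either fit, apart from TAP2, which the 8-library fit called lower against both.

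The controls themselves differed. Scramble stood above vector for TAPBP by 0.55 (SE 0.07, edgeR adjusted p 3.2e-04), for HLA-E by 0.51 (SE 0.12, adjusted p 0.012), for HLA-B by 0.50 (SE 0.15, adjusted p 0.041) and for B2M by 0.39 (SE 0.08, adjusted p 0.0075). These 4 of the 9 compare with 7.1% of all genes called higher. TAPBP was called with any single library left out, while leaving out any scramble or vector library ended the calls of HLA-E, HLA-B and B2M, with adjusted p-values of up to 0.094, 0.20 and 0.081. HLA-C was at 0.36 (adjusted p 0.10), TAP1 at 0.32 (adjusted p 0.086), ERAP2 at 0.25, ERAP1 at 0.10 and TAP2 at 0.10. All 9 values were positive, with a median of 0.36 against 0.00 for all genes, and for 8 genes both scramble libraries lay above both vector libraries, as for 34.5% of all genes. The 8-library fit called 7 members higher, all but ERAP1 and TAP2, where 20.2% of all genes were called higher. For HLA-B, HLA-C, HLA-E, B2M and TAPBP both hairpin means lay between the means of scramble and vector. Beside this, fibroblast markers also differed between these controls, with 5 of the 7 tested called higher in scramble and 1 lower, and 1 of the 4 epithelial markers tested, MUC1, was called lower (-0.63). The summed level of the fibroblast markers was 9412 to 9917 CPM in scramble and 8693 to 8713 CPM in vector, and the part of either set in the result was not tested.

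**Figure D4:**
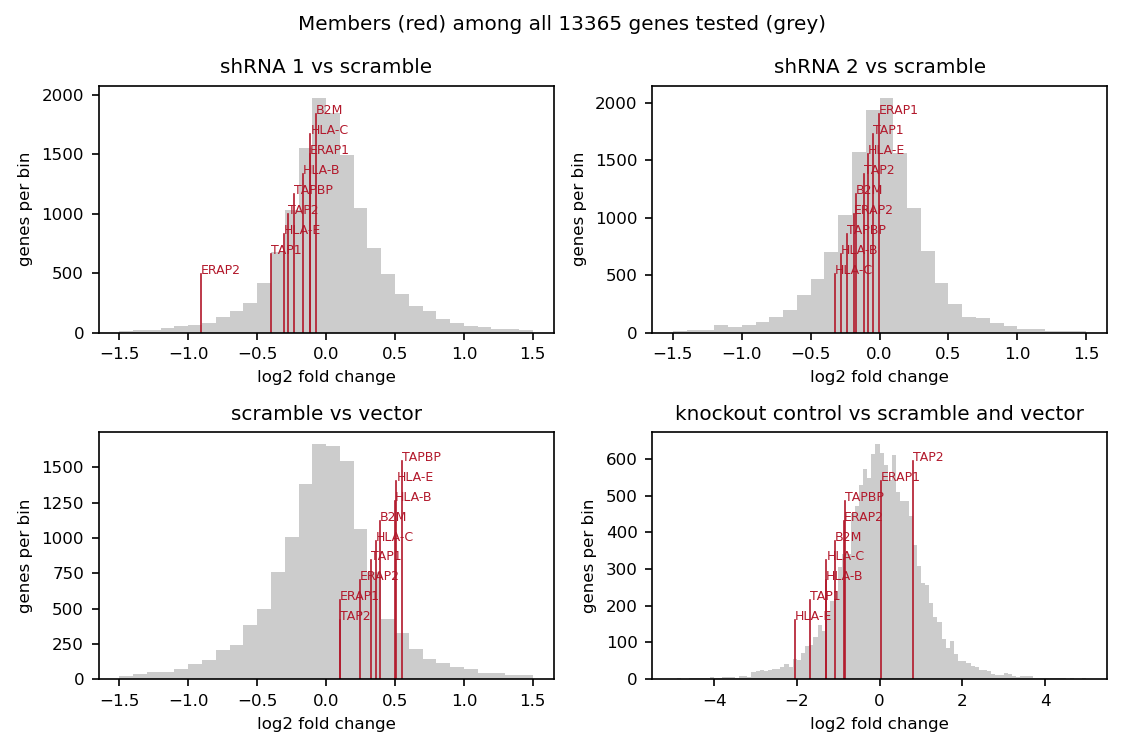
Distribution of log2 fold changes over all genes tested (grey, genes per bin) with the 9 members (red lines) in 4 comparisons. Genes outside the plotted range are left out (142, 111 and 206 genes beyond 1.5 for the first 3 panels, and 34 beyond 5 in the last). The members lie below 0 against scramble, above 0 for scramble against vector, and well below 0 for 7 of 9 in the knockout control against the knockdown controls. The first 3 panels share the scramble libraries, with opposite sign in the third.

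The hairpins were also compared with each other. ERAP2 was lower with shRNA 1 than with shRNA 2 (-0.72, SE 0.13, edgeR adjusted p 0.0033), the one member called, where 7.21% of all genes were called lower. TAP1 was at -0.35 (SE 0.12, adjusted p 0.068), HLA-E at -0.22 (adjusted p 0.24) and HLA-C at 0.21 (adjusted p 0.36). The 8-library fit called 6 members. ERAP2 at -0.72, TAP1 at -0.35 and HLA-E at -0.22 were lower with shRNA 1 (19.3% of all genes were called lower), and HLA-C at 0.21, HLA-B at 0.11 and B2M at 0.10 were higher (18.4%). Within the 8-library fit the hairpins thus differed in which class I genes stood furthest below scramble. ERAP2, TAP1 and HLA-E were furthest with shRNA 1, and HLA-C and HLA-B with shRNA 2.

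The difference between the knockout effect and the mean hairpin effect against scramble was tested as one contrast, and edgeR called 0 of the 9, where 1.1% of all genes were called in either direction. Unadjusted p-values below 0.05 were found for 2 members, ERAP2 and TAPBP, and for 1957 of all genes. DESeq2 called 1 member, ERAP2, and 214 of all genes. ERAP2 was at 0.75 (SE 0.16, adjusted p 0.055), TAPBP at 0.28 (SE 0.09, adjusted p 0.18) and HLA-E at 0.04 (SE 0.15, adjusted p 0.95). All 9 values were positive, with a median of 0.22, and the knockout control and scramble libraries enter all of them. With single libraries left out, HLA-C ran from -0.045 to 0.47 and HLA-E from -0.14 to 0.24. Both were lowest without the second knockout control library.

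For all members but ERAP1 and ERAP2, the largest fold change was between the arms. The knockout control was compared with the mean of scramble and vector, a comparison added after the levels had been seen. HLA-E stood lower there (-2.05, SE 0.11, edgeR adjusted p 2.9e-08), or 0.242 times its level in the knockdown controls. TAP1 was at -1.67 (SE 0.11), HLA-B at -1.29 (SE 0.14), HLA-C at -1.29 (SE 0.13), B2M at -1.07 (SE 0.07), ERAP2 at -0.86 (SE 0.11) and TAPBP at -0.84 (SE 0.06), each with an adjusted p of at most 3.3e-05. TAP2 was higher by 0.82 (SE 0.07, adjusted p 1.1e-06) and ERAP1 was at 0.02 (SE 0.11, adjusted p 0.86). In all, 7 of the 9 were called lower and 1 higher, where 33% of all genes were called lower and 34.8% higher.

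The arms differ in doxycycline, constructs and possibly in culture and time, and these cannot be told apart. Marker genes moved with this difference. All 7 fibroblast markers were tested and called lower in the knockout control, with a median of -2.49, and their summed level was 1918 to 2239 CPM there, against 9412 to 9917 CPM in scramble and 8693 to 8713 CPM in vector. Of the 4 epithelial markers tested, KRT8 (-1.16) and MUC1 (-0.93) were called lower, with summed levels of 252 to 370.1 CPM in the knockout control, 377 to 412 CPM in scramble and 441 to 466 CPM in vector. The 1 leukocyte marker tested, CD68, was called lower at -0.67, with summed levels of 231 to 304 CPM in the knockout control, 426 to 443 CPM in scramble and 411 to 417 CPM in vector. The part of these markers in the result was not tested. Fewer cells of a type and less RNA per cell cannot be told apart in such libraries.

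Genes that act with the class I set were taken from 7 lists of 69 genes. Of the loading chaperones, 4 were tested. CALR, which encodes calreticulin, fell by 0.57 with shRNA 2 against scramble (SE 0.12, edgeR adjusted p 0.016), and PDIA3, the thiol oxidoreductase of the loading complex, fell by 0.41 (SE 0.07, adjusted p 0.0057). With shRNA 1 against scramble CANX, which encodes calnexin, fell by 0.39 (SE 0.10, adjusted p 0.036). Against vector, shRNA 2 was called at -0.60 for CALR, -0.26 for PDIA3 and 0.36 for CANX. With shRNA 1 against vector 0 of the 4 were called, and the 8-library fit called 1 lower, where 20.6% of all genes were. The hairpins differed from each other in CALR (0.46, adjusted p 0.029), PDIA3 (0.32, adjusted p 0.014) and CANX (-0.43, adjusted p 0.017), each value being shRNA 1 over shRNA 2. Calnexin was therefore lower with shRNA 1, and calreticulin and PDIA3 lower with shRNA 2.

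The immunoproteasome and PA28 genes, which make or regulate the proteasome form that favours class I peptides, had 5 tested members. In edgeR's 12-library fit 0 of the 5 were called in the knockout, with either hairpin against either control, between the hairpins or between the knockdown controls, and DESeq2 called 0 in these comparisons. At an unadjusted p below 0.05 there was 1 in shRNA 1 against scramble, beside 3123 of all genes, and 0 in the others. PSMB9, a catalytic subunit, is named after its values were seen. PSMB9 was at -0.38 (SE 0.16, adjusted p 0.17) with shRNA 1 and -0.23 (SE 0.15, adjusted p 0.44) with shRNA 2 against scramble. The fit to 8 libraries called 2 of the 5 lower with shRNA 1 and 3 lower with shRNA 2 against scramble, where 16.7% and 14.8% of all genes were called lower. Of the class II genes 1 of 10 passed the low-count filter, HLA-DMA, and it was not called in any comparison by edgeR or DESeq2, nor at an unadjusted p below 0.05.

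Of 14 regulators of class I transcription, 1 was called lower with shRNA 1 against scramble, where 5.01% of all genes were called lower. NFKB1, a subunit of NF-kappa B, fell by 0.46 (SE 0.09, edgeR adjusted p 0.0081). The 8-library fit called 5 of the 14 lower and 3 higher with shRNA 1 against scramble (16.7% and 15.6% of all genes). With shRNA 2 it called 1 lower and 1 higher (14.8% and 15.7%). With shRNA 2 against scramble edgeR and DESeq2 called 0 of the 14, and NFKB1 was at -0.06. At an unadjusted p below 0.05 there was 1 of the 14, beside 2890 of all genes. Scramble was above vector for IRF1, an interferon-induced activator of class I genes, by 0.62 (SE 0.14, adjusted p 0.0097) and for NFKB1 by 0.52 (SE 0.09, adjusted p 0.0020). NLRC5, the class I transactivator, was lower with shRNA 1 than with shRNA 2 (-0.40, SE 0.09, adjusted p 0.014) and was uncalled against scramble with both hairpins (-0.24 and 0.16). RFX5, which binds class I and class II promoters, went the other way between hairpins (0.44, SE 0.10, adjusted p 0.014).

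Of 11 interferon signalling genes 9 were tested. IFNGR2, a chain of the interferon gamma receptor, fell with both hairpins against scramble, by 0.48 with shRNA 1 (SE 0.09, edgeR adjusted p 0.0071) and by 0.34 with shRNA 2 (SE 0.09, adjusted p 0.042). Like TAPBP and B2M, IFNGR2 also rose against vector with shRNA 1, by 0.35 (adjusted p 0.027), and scramble stood above vector by 0.83 (SE 0.09, adjusted p 1.1e-04). IFNAR2, of the type I interferon receptor, fell by 0.43 with shRNA 1 against scramble (SE 0.10, adjusted p 0.022) and stood 0.63 higher in scramble than in vector (adjusted p 0.0014). IFNGR1, the other interferon gamma receptor chain, rose by 0.45 with shRNA 2 against scramble (SE 0.08, adjusted p 0.0085) and by 0.63 against vector (adjusted p 3.4e-04). JAK1, the kinase bound to these receptors, rose by 0.42 with shRNA 2 against vector (adjusted p 0.0089). Scramble was also called above vector for JAK1, by 0.35, and JAK1 was uncalled with either hairpin against scramble. In the knockout 0 of the 9 tested were called, with 1 at an unadjusted p below 0.05 (859 of all genes) and 0 called by DESeq2.

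Of 14 nonclassical class I genes and NKG2D ligands 10 were tested. MICB, a stress ligand of the receptor NKG2D, fell by 0.74 with shRNA 1 (SE 0.11, edgeR adjusted p 0.0021) and by 0.42 with shRNA 2 (SE 0.11, adjusted p 0.033) against scramble, and against vector it was at -0.31 and 0.00. ULBP1, another NKG2D ligand, fell with shRNA 2 by 0.69 against scramble (SE 0.19, adjusted p 0.049) and by 1.04 against vector (SE 0.18, adjusted p 0.0020). MR1, which presents vitamin metabolites, fell by 0.64 with shRNA 2 against scramble (SE 0.12, adjusted p 0.0076), and with shRNA 1 it rose by 0.65 against vector (SE 0.12, adjusted p 0.0056). These values have different controls, and scramble itself was called 0.85 above vector for MR1. Compared directly, shRNA 1 was called 0.44 above shRNA 2. HFE, a regulator of iron uptake with a class I fold, rose against scramble by 1.18 with shRNA 1 (adjusted p 0.023) and by 1.04 with shRNA 2 (adjusted p 0.042), and was 1.52 lower in scramble than in vector (-1.52, SE 0.26, adjusted p 0.0022). Of 11 other peptidases and turnover genes, 1 was called by edgeR with shRNA 2 against scramble and 0 with shRNA 1, where 7.74% and 9.41% of all genes were called. With shRNA 1 DESeq2 called 0, and 2 had an unadjusted p below 0.05, beside 3123 of all genes. NPEPPS, a cytosolic aminopeptidase, rose by 0.36 with shRNA 2 against scramble (adjusted p 0.038). THOP1, a cytosolic oligopeptidase, was 0.89 lower in scramble than in vector (-0.89, adjusted p 0.0015). DERL1, a channel component of protein export from the endoplasmic reticulum, stood 0.24 higher in scramble than in vector (adjusted p 0.041).

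Over these lists, 49 calls of named genes were made outside the comparison of the arms. All 49 were called when the 8 knockdown-arm libraries were fitted alone, and 12 held under every setting tried, leaving out any single library included. Of the calls against scramble, MICB with shRNA 1 was the one that held throughout. The calls of IFNGR2 and MICB with shRNA 2 against scramble held in 5 and 7 of 18 alternative settings. Both calls were lost in DESeq2, without the low-count filter, under a replicate block and with a library of either compared group left out. Leaving out a library of some other groups also ended both calls. Between the arms, 7 of the 9 interferon signalling genes were called lower in the knockout control than in the mean of scramble and vector, where 33% of all genes were, among them IFNGR2 at -1.17 and JAK1 at -1.12. Of the regulators, 6 of 14 were called lower and 5 higher there, where 33% of all genes were called lower and 34.8% higher.

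**Figure D5:**
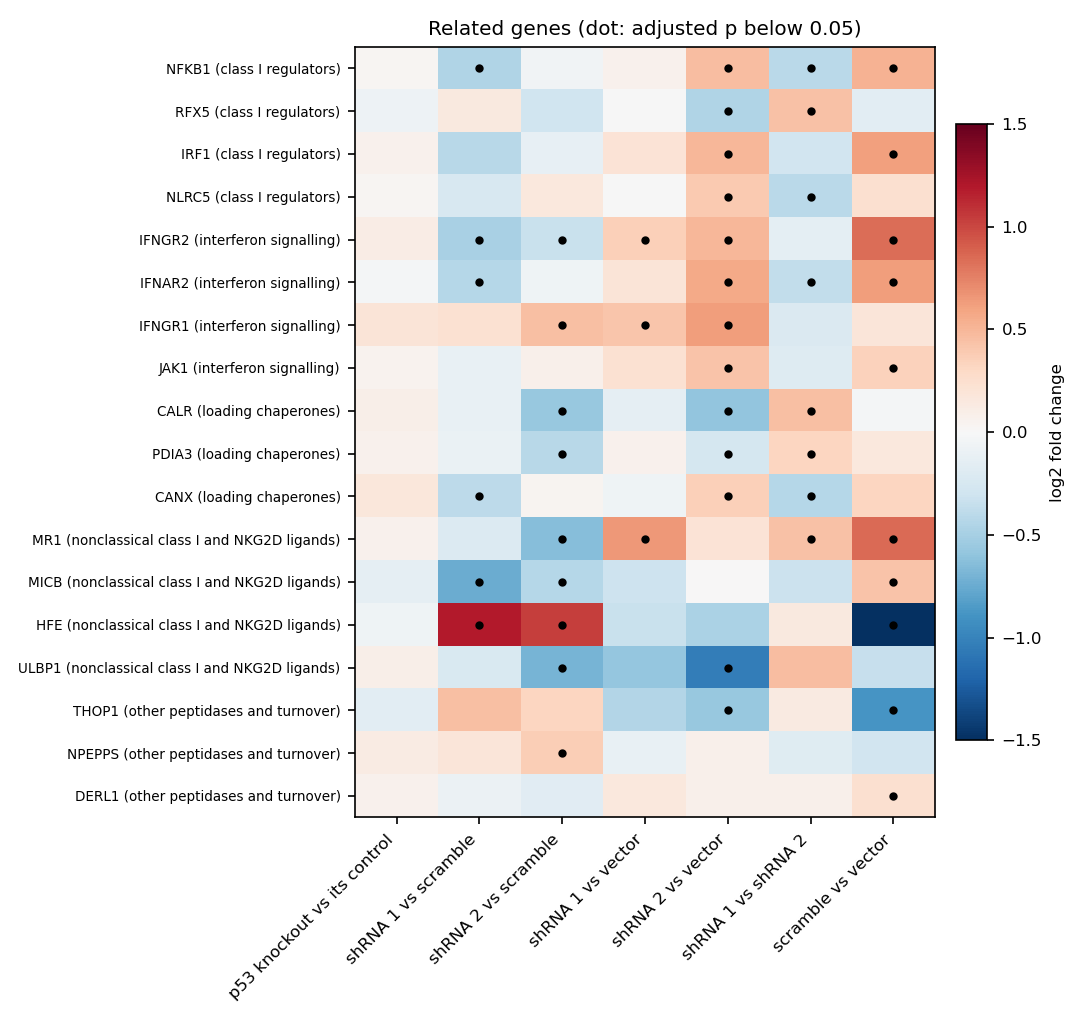
Log2 fold changes (colour, first over second group as written below each column) of the 18 related genes named by rule, with dots where the adjusted p was below 0.05. The knockout column holds 0 dots, and the scramble against vector column often has the opposite colour to the hairpin against scramble columns, as for IFNGR2, MICB and HFE. These columns share the scramble libraries with opposite sign, so a high or low scramble value alone gives opposite colours. The genes were also named for being called in these comparisons.

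Likeness across the 12 libraries was measured as the root mean square difference of centred log2 CPM. HLA-B and HLA-C were the most alike pair of members, at 0.063, followed by TAPBP and B2M at 0.12 and HLA-B and B2M at 0.15. The least alike pairs all held TAP2, which differed from HLA-E by 1.45 and from TAP1 by 1.21. Outside the set, the genes nearest to the mean profile of HLA-B, HLA-C and B2M were SRPX (0.101), HLA-G (0.102), BMP1 (0.103), CCNB1IP1 (0.105) and DNAJC1 (0.105), where the profile itself varied by 0.595. The genes nearest to ERAP2 were LPIN2 and RAB6A (0.119 each), ZNF624 (0.124), NUAK1 (0.125) and STK17A (0.136), with 0.398 for the profile of ERAP2. These distances describe 12 libraries that share 6 groups.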

How the data were processed

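RNA of 12 LMSU libraries, 6 groups of 2, was sequenced with an mRNA library kit from total RNA, per the labels. The values are raw counts by gene symbol, deposited by the authors without normalisation in a single table. The submitters' processing notes list bcl2fastq, STAR 2.5 and hg19, while how reads were counted, and on which annotation, was not given in the sources used here. Library totals were 9738094 to 16823246 counts, and all values were whole numbers. The targeted gene and some genes of the related and marker lists are not reported here.

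The tests ran in edgeR 4.0.16 (limma 3.58.1, R 4.3.3). After filterByExpr at a minimum count of 10, 13365 genes remained, and TMM factors scaled the library sizes. The 6 groups were fitted together (6 residual degrees of freedom), contrasts were tested with the two-sided quasi-likelihood F test, and each comparison had a Benjamini-Hochberg adjustment over its 13365 genes. Intervals are 95% intervals of the fitted log2 fold change. The procedure was tested on simulated data with the same spread of a gene in all libraries. That test does not cover the unequal spread of the arms. Alternatives were RLE size factors, no filter, DESeq2 1.42.0, the compared libraries alone, the 8 knockdown-arm libraries alone, a replicate block and each library left out in turn. The printing of the 8-library fit beside the other, the comparison of the arms' controls and a crossed block were added after the data had been seen.

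Members were given by name. Related genes were named by a rule of at most 4 per list, those called in the most comparisons and then with the smallest adjusted p, and the 5 genes most alike by the smallest root mean square difference. The members and lists were chosen with earlier results of these data known. Promoters came from RefSeq (GRCh38.p14) and transcript lengths and overlaps from GENCODE. Figures were drawn with matplotlib 3.10.9.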

Additional observations from a re-analysis of the deposited data

Results flagged for a closer look

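The effect of the hairpins on ERAP2 differed. ERAP2 was at 80.1 and 77.2 CPM with shRNA 1 and at 129 and 129.8 CPM with shRNA 2, beside 147 and 147 CPM in scramble. The test of the difference itself gave a log2 fold change of -0.72 for shRNA 1 over shRNA 2 (edgeR adjusted p 0.0033), and it was called in 18 of 18 alternative settings, at -0.75 to -0.69. The knockout-arm libraries were at 93.7 and 78.9 CPM (knockout) and 64.3 and 85.4 CPM (its control). The cause was not tested.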

How the results depend on the processing

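Counts of members called moved most with the libraries fitted. The compared libraries alone called 6 (shRNA 1 against scramble), 5 (shRNA 2 against scramble), 7 (shRNA 1 against vector), 5 (shRNA 2 against vector), 5 (shRNA 1 against shRNA 2) and 7 (scramble against vector) members, and the 8 knockdown-arm libraries called 7, 5, 7, 5, 6 and 7. Without a low-count filter 3, 2 and 2 were called for shRNA 1 against scramble, shRNA 2 against scramble and shRNA 1 against shRNA 2, 4 for shRNA 1 against vector, 6 for scramble against vector and 1 for the knockout effect minus the hairpin effect. DESeq2 called 2 for shRNA 1 against scramble and 1 for the knockout effect minus the hairpin effect. The cause was not tested. RLE size factors left every count of members as it was. Leaving out single libraries gave 0 to 4 members for the knockout, 1 to 5 and 0 to 4 for shRNA 1 and shRNA 2 against scramble, 0 to 6 and 0 to 5 against vector, 1 to 4 between hairpins, 1 to 7 for scramble against vector, 0 to 6 for the knockout effect minus the hairpin effect, and 8 throughout for the comparison of the arms. Apart from the arms, the highest counts came without the first or second knockout control library. Over all genes, the knockout comparison called 2 genes, and 64 without a filter, 20 in DESeq2, 0 with the compared libraries alone and 1 to 4122 with a library left out, and the comparisons within the knockdown arm, which called 1034 to 2801, called 3926 to 6396 with the compared libraries alone and 242 to 4819 with a library left out. The knockout effect minus the hairpin effect called 147 genes, and 505 without a filter, 55 with the compared libraries alone, 60 under a replicate block and 25 to 3345 with a library left out. Within the knockdown arm, comparisons called 1432 to 3353 of all genes without a filter, 840 to 2325 in DESeq2 and 4076 to 6089 in the 8-library fit. Under a replicate block these comparisons called 743 to 2440 of all genes. Where a group was left with 1 library, that library was assumed to vary like the others.

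The sign of 26 member values turned, and 0 of these had been called. TAP1 in the knockout was at 0.000909 with the compared libraries alone and 0.0076 under a crossed block. ERAP1 with shRNA 2 against scramble was at 0.0054 with RLE and with DESeq2, TAP2 with shRNA 2 against vector was at 0.00018 with DESeq2, and TAPBP between hairpins was at -0.0088 with RLE and DESeq2. With single libraries left out, the knockout values ran from -0.19 to 0.34 for HLA-B, -0.26 to 0.25 for HLA-C, -0.34 to 0.044 for HLA-E, -0.20 to 0.21 for TAP1 and -0.0069 to 0.029 for TAP2. ERAP1 ran from -0.075 to 0.061 (shRNA 2 against scramble), -0.11 to 0.064 (shRNA 1 against vector) and -0.15 to 0.18 (between arms), and TAP2 from -0.076 to 0.047 (shRNA 2 against vector). For the knockout effect minus the hairpin effect HLA-C ran from -0.045 to 0.47 and HLA-E from -0.14 to 0.24.

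Replicate numbers were shared between groups. Deviations from the group means of same-numbered libraries correlated at -0.47 between the knockout and its control, and at -0.14 to 0.16 between other groups. Same numbers thus did not pair the libraries. In the knockout arm, libraries with opposite numbers deviated alike, and the cause was not tested. A replicate block called 0 members in the knockout, 1 and 0 for shRNA 1 and shRNA 2 against scramble, 2 and 2 against vector, 1 between hairpins, 3 for scramble against vector and 8 between the arms. B2M with shRNA 1 against vector and HLA-B for scramble against vector lost their call. Crossing the numbers in the knockout arm called 67 genes and 0 members. The lowest member count in a library was 453 reads, for ERAP1 with shRNA 1, and with 2 libraries a group the spread between libraries enters each test beside this counting error.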
